A study of Mus musculus with 2 samples.

Results

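The 39 protein-coding genes whose symbol begins with Hoxa, Hoxb, Hoxc or Hoxd and a number were examined, out of 21911 protein-coding genes of the GENCODE mouse M21 annotation. They form 4 clusters, with 11 genes in Hoxa on chromosome 6, 10 in Hoxb on chromosome 11, 9 in Hoxc on chromosome 15 and 9 in Hoxd on chromosome 2. The genes were chosen by symbol, so the rule itself uses no measured value. The assay was DNase-seq, which maps accessible chromatin as the DNA that DNase I can cut because no nucleosome covers it. The tissue was hippocampus, called a layer of hippocampus in the labels, taken from male B6CASTF1/J mice, a first-generation hybrid of C57BL/6J and CAST/EiJ, at an age of 10 days. There was 1 group of 2 libraries, biological replicates 1 and 2, each made from its own tissue sample whose description reads 3x male, and no treatment, mutation or second condition was named. Both samples carry the same donor label, so the spread between them may be partly technical, and with 1 group no test between conditions was possible.

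Hox genes encode homeodomain transcription factors that give cells their position along the head-to-tail axis. Within a cluster the genes lie in the order in which they are used along that axis, with paralog group 1 acting at the front and group 13 at the back, and their anterior limit in the nervous system lies in the hindbrain. The forebrain, to which the hippocampus belongs, forms in front of that limit, and in cells that do not use them the clusters are known to be covered by Polycomb proteins, which keep the genes silent. The insulator protein CTCF is known to bind between Hox genes and to divide the clusters into chromatin domains.

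Most Hox genes lacked an accessible start. A gene was called open where its nearest deposited region was no more than 1000 bp from an annotated start, and closed otherwise. By the shorter of the 2 deposited region lists, 2 of the 39 Hox genes (5.13%) were open in replicate 1, and 7 (17.9%) were open in replicate 2, which gave a mean of 4.5 ± 3.54 genes (SD, n = 2 libraries). Of all protein-coding genes, 59.6% were open in replicate 1 and 64.1% in replicate 2. By the longer list, which holds weaker regions as well, 7 Hox genes (17.9%) and 11 Hox genes (28.2%) were open, against 64.9% and 68.5% of all protein-coding genes. In both lists the Hox share stayed below the genome share by more than the difference between the 2 libraries. In bulk tissue, fewer cells with open chromatin and a lower accessibility per cell cannot be told apart.

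The closed genes covered every cluster and nearly the whole paralog series. In the shorter list 32 Hox genes were closed in both libraries, and in the longer list 28 were. Of the 8 genes of paralog groups 1 to 3, which act in the hindbrain, 0 were open in replicate 1 and 1 in replicate 2. Of the 15 genes of groups 4 to 8, 1 and 4 were open, and of the 16 genes of groups 9 to 13, 1 and 2 were open. No member of groups 2, 8, 9, 12 or 13 was open in either list of either library, and the 13th group, which patterns the tail end and the digits, includes Hoxa13, Hoxb13, Hoxc13 and Hoxd13. By cluster, 2 and 3 of the 11 Hoxa genes were open by the shorter lists, 0 and 1 of the 10 Hoxb genes, 0 and 2 of the 9 Hoxc genes, and 0 and 1 of the 9 Hoxd genes.

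**Figure D1:**
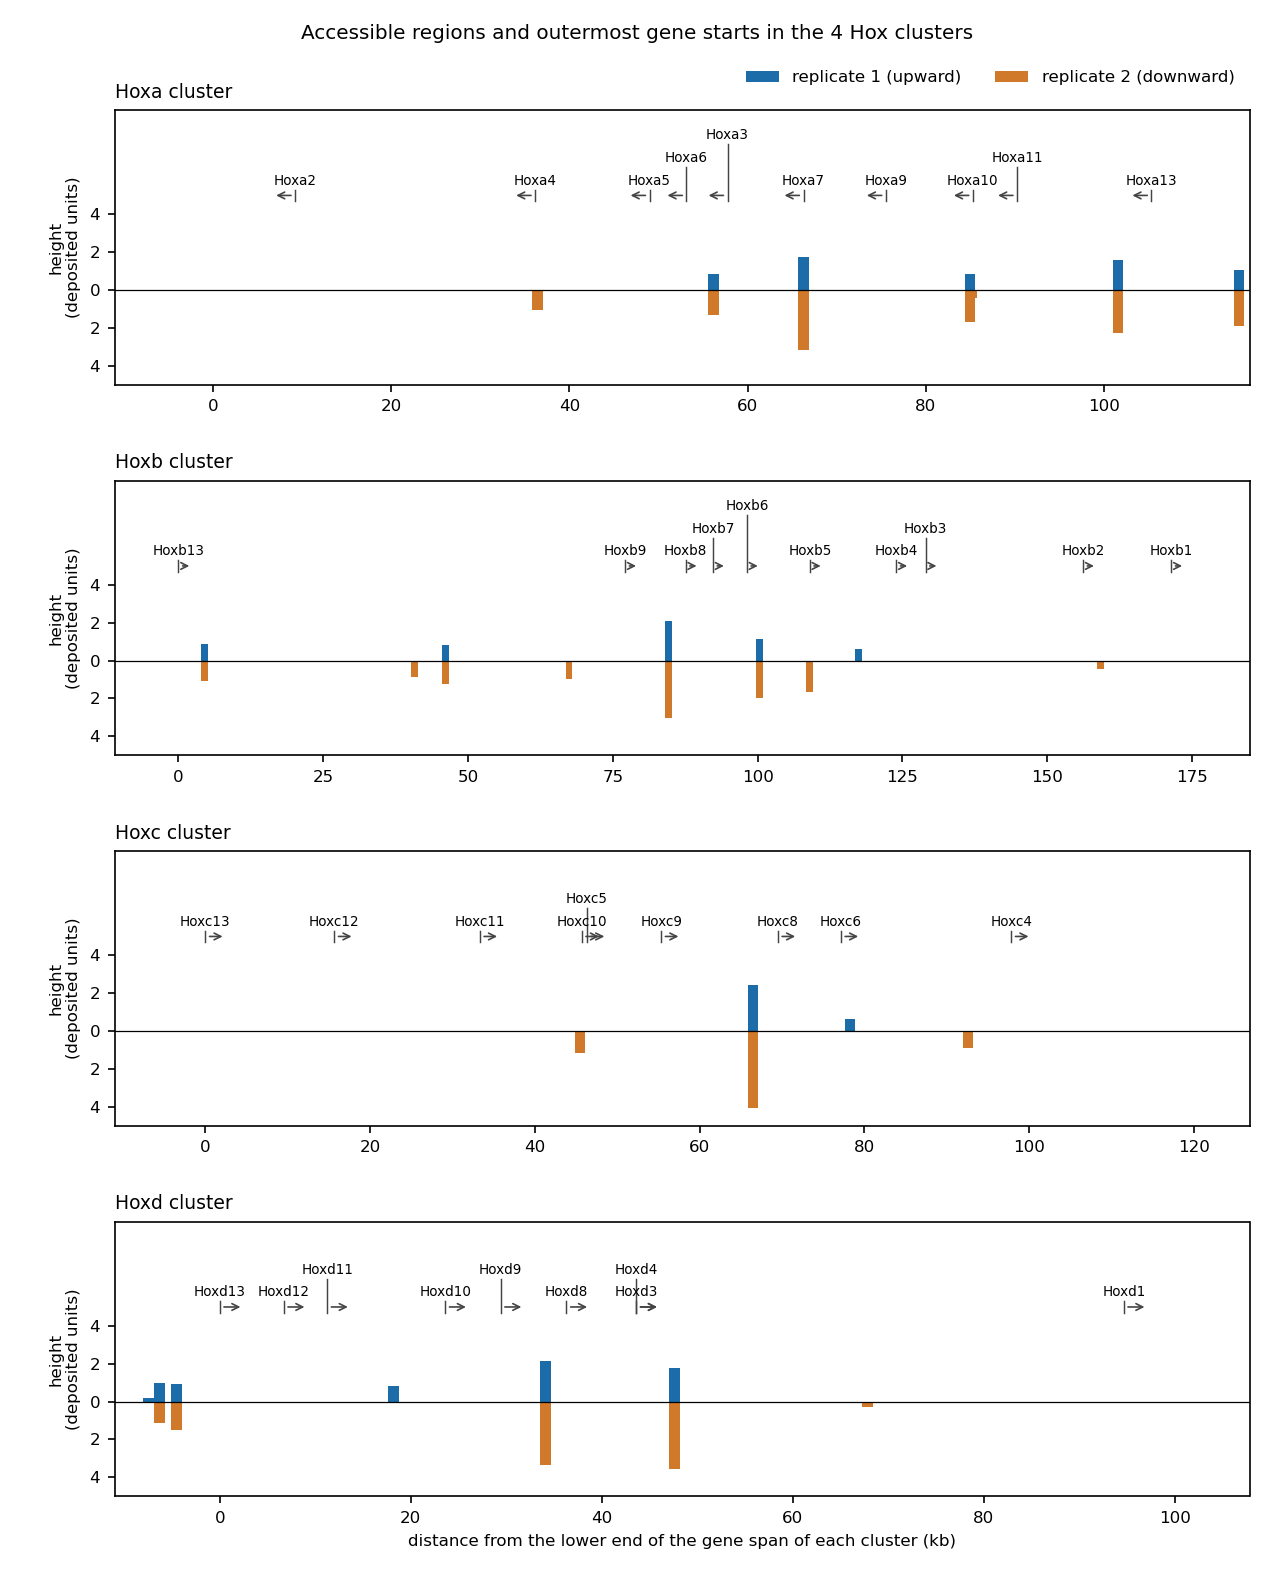
Maps of the 4 Hox clusters with 10 kb on each side, with distance from the lower end of the gene span in kb on the horizontal axis. Bars show the deposited height of each region of the shorter lists, upward for replicate 1 and downward for replicate 2, and are drawn wider than the regions; ticks with arrows mark the outermost start and direction of the genes named on the maps. Most bars stand between the starts, and most starts carry no bar.

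Hoxa7, which acts in the trunk, had the highest region at a Hox start in each library. Its region, at chr6:52221701-52221940 and overlapping an untranslated exon, had a height of 1.77 in replicate 1 and 3.18 in replicate 2, in the authors' units. It was higher than 72.5% of all regions of replicate 1 and 86.8% of all regions of replicate 2. The lowest false discovery rate (FDR) of the cut rate that the authors give for a base within 1000 bp of its starts was 5.91e-15 in replicate 1 and 4.85e-22 in replicate 2. Hoxa10, which patterns the lumbar region and the uterus, was the other gene open in both libraries. Its region at chr6:52240441-52240620 had heights of 0.848 and 1.68, and the lowest FDR was 1.08e-05 and 1.18e-31. A second, weaker region lay over an inner Hoxa10 start in replicate 2 alone, with a height of 0.415. Both genes thus had a region in each library, with the larger height in replicate 2.

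The regions of Hoxa7 and Hoxa10 each held a match to a CTCF consensus, described below, in transcribed sequence that the annotation gives as untranslated. Both matches overlapped a footprint, a short protected stretch inside accessible DNA, in both libraries. The 30 bases around each match are printed 5′ to 3′ on the minus strand of mm10, the strand of both genes, because these were the genes open in both libraries by the shorter lists. Capitals mark the match. The site of Hoxa7 spans chr6:52221800-52221829 and that of Hoxa10 chr6:52240532-52240561.
Hoxa7 start: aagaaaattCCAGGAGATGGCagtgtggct
Hoxa10 start: tcgcagccgCCACGAGATGGCgcactcccg

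A further 5 Hox genes were open in the shorter list of replicate 2 alone. Hoxb5, a gene of the neck and upper trunk level, had a region over its start with a height of 1.64 in replicate 2. In replicate 1 that region was found in the longer list alone, with a height of 0.541. Hoxa4 had a height of 1.04 in replicate 2, and 0.572 in the longer list of replicate 1. Hoxc10, which is used by lumbar motor neurons, had a height of 1.14 in replicate 2, and 0.597 in the longer list of replicate 1. Hoxc5, which together with Hoxa5 is needed by the motor neurons of the diaphragm, shared that region, since its longest transcript model begins close to Hoxc10, and it had a region of 0.912 at its own downstream start in replicate 2. Hoxd3, a gene of the uppermost neck vertebrae, had the weakest of these regions, with a height of 0.284 in replicate 2 and none in either list of replicate 1. For 4 of these 5 genes, replicate 1 thus held the same place at a lower height.

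The longer list added 4 genes. Hoxc6, expressed at forelimb level in the spinal cord, had a height of 0.641 in replicate 1 and 0.781 in replicate 2. Hoxa5, Hoxa11 and Hoxd1 had a region in the longer list of replicate 2 alone, with heights of 0.726 for Hoxa5, 0.295 for Hoxa11 and 0.388 for Hoxd1. All 4 were below the height of the Hoxa7 region in the same library. Where Hox starts were open by the shorter list, their highest region had a median height of 1.31 in replicate 1 (2 genes) and 1.14 in replicate 2 (7 genes). At all open protein-coding genes the median was 2.59 in replicate 1 and 3.14 in replicate 2.

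The per-base FDR picked the same Hox genes as the regions, at 0.001 those of the shorter list and at 0.05 those of the longer. Both come from the same reads, and whether the regions were made from this FDR is not stated. Their match is therefore no separate support. A base listed at an FDR of at most 0.05 lay within 1000 bp of the starts of 7 Hox genes in replicate 1 and 11 in replicate 2, against 65.7% and 69.3% of all protein-coding genes. At an FDR of at most 0.001 the counts were 2 and 7 Hox genes, against 60.4% and 64.6% of all protein-coding genes. The number of listed bases around a Hox start had a median of 0 in both libraries, and around all protein-coding starts a median of 584 in replicate 1 and 861 in replicate 2. The largest number at a Hox gene was 435 in replicate 1, at Hoxa7, and 703 in replicate 2, at Hoxa10, so that no Hox start reached the median of all genes in either library. The lowest FDR was 0.00294 and 2.56e-05 at Hoxa4, 0.00715 and 2.49e-11 at Hoxb5, and 0.00132 and 2.99e-06 at Hoxc10, in replicates 1 and 2. Hoxd3 reached 8.37e-08 in replicate 2, with no listed base in replicate 1. A footprint lay within 1000 bp of a start in 7 Hox genes in each library, against 63.5% and 67.3% of all protein-coding genes.

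Most Hox starts were CpG-rich, the sequence class that is open almost throughout the genome. A start was called CpG-rich where the 500 bp on each side of the outermost start had a GC content of at least 50% and an observed over expected CpG of at least 0.6. By this rule 24 of the 39 Hox genes had a CpG-rich outermost start, and 44.4% of all protein-coding genes. Observed over expected CpG had a median of 0.678 at Hox starts, from 0.181 at Hoxb2 to 0.996 at Hoxa5, and of 0.552 at all protein-coding starts. Of these 24 Hox genes, 1 was open at any of its starts in replicate 1 and 4 in replicate 2 by the shorter list, against 91.8% and 95.5% of all genes with a CpG-rich start. Hoxd3, among these 4, was open at an inner start alone. By the longer list 3 and 7 of the 24 were open, against 95.3% and 97.5%. Of the 15 other Hox genes, 1 and 3 were open by the shorter list, and 33.9% and 38.98% of all protein-coding genes without a CpG-rich start. In percentage points, the gap to the rest of the genome was wider among genes with a CpG-rich start than among the others, in both libraries. The gap among the others could not exceed their genome share of 33.9% and 38.98%. The direction of this difference was thus largely set by the genome shares.

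**Figure D2:**
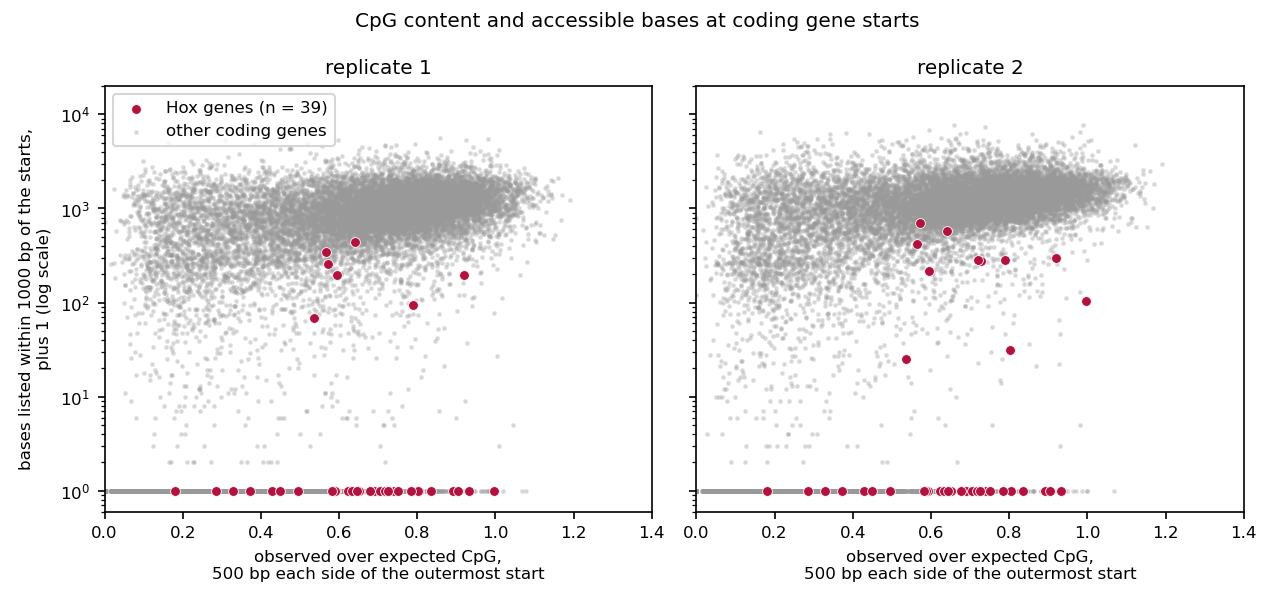
Observed over expected CpG around each outermost start (horizontal axis) against the number of bases listed at an FDR of at most 0.05 within 1000 bp of the starts, plus 1, on a log axis, in each library. Red points are the 39 Hox genes and grey points the other protein-coding genes. The Hox genes spread over the CpG axis from 0.181 to 0.996, and most lie at no listed base in both libraries, while most grey points of high CpG lie far above.

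Genes that work with Hox proteins were open in the same libraries. All 9 genes of the TALE class, homeodomain cofactors that bind DNA beside Hox proteins, were open in both libraries, with heights from 1.04 at Meis1 to 5.47 at Pknox1 in replicate 1, and from 1.08 to 5.84 at the same genes in replicate 2. All 27 Polycomb subunit genes were open in both libraries, among them Ezh2, the methyltransferase that writes the repressive histone mark, with heights of 5.91 and 6.82. Of 15 genes for Trithorax proteins, histone demethylases and chromatin architecture, which counter Polycomb or fold the clusters, 14 were open in each library. Of all protein-coding genes 59.6% and 64.1% were open, and of those with a CpG-rich start 91.8% and 95.5%. CpG-rich starts were held by 5 of the 9 TALE genes, 21 of the 27 Polycomb genes and 12 of these 15. High open shares in these lists were thus close to that of the CpG-rich class. Ctcf had heights of 2.11 and 3.18, and Kdm6b, a demethylase of the Polycomb mark, was closed by the shorter lists, with 1.27 and 1.26 by the longer ones. Of the 8 ParaHox and Evx genes, the closest homeobox relatives of the Hox genes, Gsx1 was open in both libraries, with heights of 1.36 and 1.39. The other 7, Gsx2, Pdx1, Cdx1, Cdx2, Cdx4, Evx1 and Evx2, were closed in both.

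Positional factors of the brain split by region in the shorter lists, and less clearly in the longer ones. All 15 forebrain and hippocampal factors were open in both libraries, including Zbtb20, a regulator of hippocampal identity, at 7.23 and 7.40, and Prox1, which marks dentate granule cells, at 1.83 and 1.86. Of 16 hindbrain and spinal cord factors, 4 were open in replicate 1 and 7 in replicate 2 by the shorter list, and 7 and 9 by the longer. Of all protein-coding genes, 59.6% and 64.1% were open by the shorter list and 64.9% and 68.5% by the longer. Egr2, a hindbrain segment factor that neuronal activity also induces, had heights of 2.26 and 3.18. En1, Ptf1a, Lbx1, Pax8, Lmx1b and Mnx1 had no region in either list of either library. Of 8 hippocampal neuron markers, 7 were open in replicate 1 and 8 in replicate 2.

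Markers of cells that could carry Hox chromatin into the tissue were open in part. Of 8 markers each, by the shorter list, 3 and 4 were open for meningeal fibroblasts and 0 and 2 for choroid plexus, in replicates 1 and 2. For blood and microglia 2 and 3 were open, and for endothelial and mural cells 3 and 1. By the longer list the counts were 5 and 7, 2 and 6, 3 and 4, and 5 and 5, in the same order. By that list 64.9% and 68.5% of all protein-coding genes were open. The first 3 marker lists had more open genes in replicate 2, as had the Hox genes, the hippocampal neuron markers and all protein-coding genes (59.6% and 64.1% by the shorter list). The last had fewer by the shorter list and equal counts by the longer. Col1a1 was the highest of the markers, at 2.77 and 3.99, while Ptprc, Hba-a1, Gata1, Col1a2, Folr1, Kcnj13, Tek and Vtn were closed in every list. The part of such cells in the Hox regions was not tested.

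**Figure D3:**
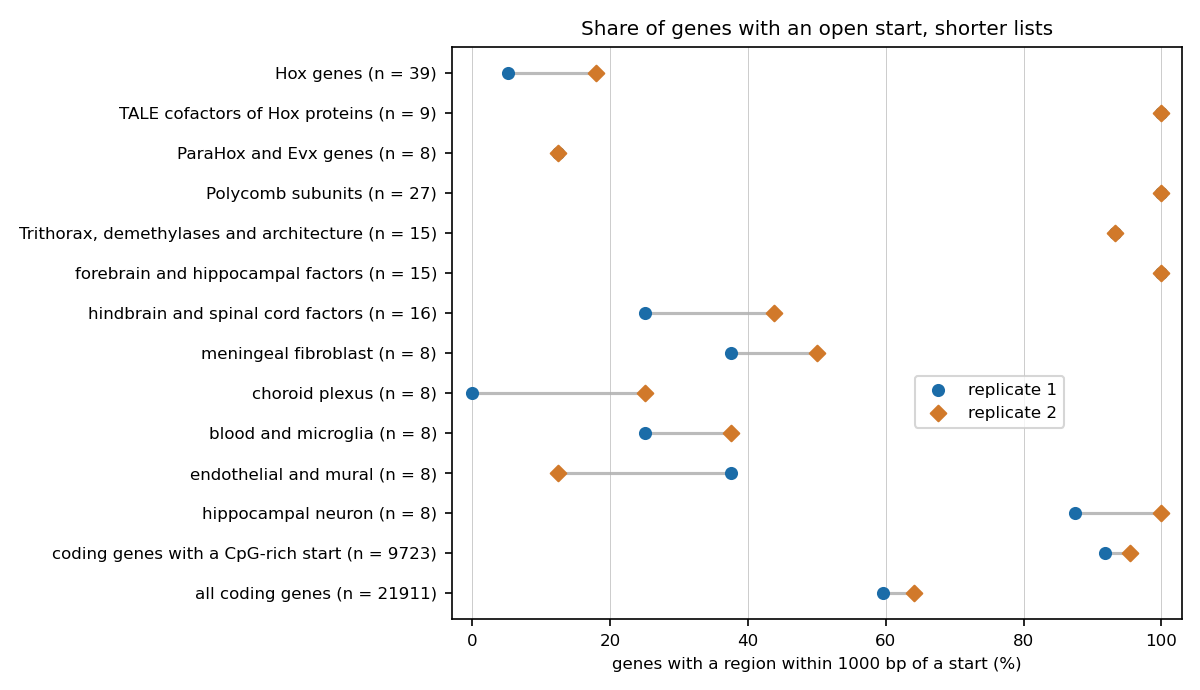
Percentage of genes with a region of the shorter list within 1000 bp of a start, for Hox genes (top), 11 comparison lists, coding genes with a CpG-rich start and all coding genes (bottom). Circles are replicate 1 and diamonds replicate 2, and a diamond alone covers a circle at the same value. Hox genes lie at 5.13% and 17.9%, near the ParaHox and Evx genes at 12.5%, while the TALE, Polycomb and forebrain lists lie at 100%.

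The clusters themselves were not poor in accessible regions. Each cluster was taken as the span of its coding Hox genes with 10 kb on each side, 572 kb in all. These windows held 19 regions of the shorter list in replicate 1 and 23 in replicate 2, or 3.32 and 4.02 per 100 kb, against 2.00 and 2.73 per 100 kb over all chromosomes used. The 250 kb on each side of the windows held 3.15 and 4.30 per 100 kb. These surroundings were uneven, from 0.8 and 1.2 on the lower side of Hoxd to 8.4 and 9.6 on the lower side of Hoxc. Within 1000 bp of an annotated start of any gene lay 5 cluster regions (26.3%) in replicate 1 and 12 (52.2%) in replicate 2, against 43.4% and 39.2% of all regions. The cluster share was thus below that of all regions in replicate 1 and above it in replicate 2. The median height in the clusters was 0.955 and 1.32, against 1.08 and 1.03 over all regions. The median distance from a Hox gene's starts to the nearest region was 5923 bp in replicate 1 and 4493 bp in replicate 2, and the largest, at Hoxc13, was 66398 bp and 45418 bp. Soft-masked repeats made up 18.5% of the windows and 36.4% of the chromosomes used.

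The clusters differed in how many regions they held. Hoxa, spanning chr6:52155590-52260880, held 5 regions in replicate 1 and 7 in replicate 2. Hoxb, spanning chr11:96194316-96368256, held 5 and 8. Hoxc, spanning chr15:102921103-103036852, held the fewest, 2 and 3, or 1.47 and 2.21 per 100 kb. Both were below the density over all chromosomes used, 2.00 and 2.73. Hoxd, spanning chr2:74668310-74765142, held 7 and 5. Hoxd was the only cluster with more regions in replicate 1, and 2 of its regions found in replicate 1 alone had heights of 0.176 and 0.201, the lowest of the shorter lists in the windows.

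Footprints followed the regions. The windows held 67 footprints in replicate 1 and 83 in replicate 2, or 11.7 and 14.5 per 100 kb, against 8.30 and 12.7 per 100 kb over all chromosomes used. Of these, 43 and 55 lay inside a region of the shorter list of the same library, and 66 and 80 inside one of the longer list. A footprint of the other library was overlapped by 43 of the 67 and by 41 of the 83, against 58.2% and 37.1% of all footprints.

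The regions of both libraries merged into 28 sites, numbered by coordinate within each cluster. Of these, 14 were found in both libraries by the shorter lists, 5 in replicate 1 alone and 9 in replicate 2 alone. The shared ones made up 73.7% of the cluster regions of replicate 1 and 60.9% of those of replicate 2, against 88.3% and 64.3% of all regions. Apart from the Hoxa7 and Hoxa10 starts described above, the 12 shared sites lay more than 1000 bp from any Hox start. The height was larger in replicate 2 at all 14, with a median ratio of replicate 2 over replicate 1 of 1.56 (1.17 to 1.99), and over all 48179 shared regions the median ratio was 1.25. The sources used here do not state whether the heights of the 2 libraries share a scale.

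The highest shared site of the 4 clusters, Hoxc-2, lay between Hoxc9 and Hoxc8, inside an intron of the long Hoxc5 transcript model and 2907 bp from the nearest Hox start, that of Hoxc8. It reached 2.42 in replicate 1 and 4.07 in replicate 2, above 82.3% and 91.9% of all regions. It was the only site that Hoxc had in both libraries. In Hoxd, site Hoxd-6 lay between Hoxd9 and Hoxd8, with heights of 2.15 and 3.36. Site Hoxd-7 lay in an exon of the long noncoding RNA gene Hoxd3os1, inside the long Hoxd3 and Hoxd4 models, with heights of 1.78 and 3.55. Hoxd-6 was above 78.9% and 88.0% of all regions, and Hoxd-7 above 72.8% and 89.1%.

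In Hoxb, site Hoxb-5 between Hoxb9 and Hoxb8 was the highest, at 2.10 and 3.05. Site Hoxb-6, inside an intron of a long Hoxb6 model, had 1.12 and 1.99. Sites Hoxb-1, 4365 bp from the Hoxb13 start, and Hoxb-3, between Hoxb13 and Hoxb9, were weaker, at 0.899 and 1.10 for Hoxb-1 and 0.817 and 1.25 for Hoxb-3. In Hoxa, site Hoxa-6 between Hoxa11 and Hoxa13, in an exon of the unclassified transcript 9530018H14Rik, had 1.58 and 2.28. Site Hoxa-7, 9721 bp beyond the Hoxa13 start, had 1.04 and 1.91, and site Hoxa-2, 1275 bp from the nearest Hoxa3 start, had 0.855 and 1.32. A pair of sites between Hoxd13 and Evx2 completed the 14, Hoxd-3 at 0.987 and 1.15 and Hoxd-4 at 0.955 and 1.49. Each cluster thus had at least 1 site that both libraries held more than 1000 bp from any coding Hox start.

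**Figure D4:**
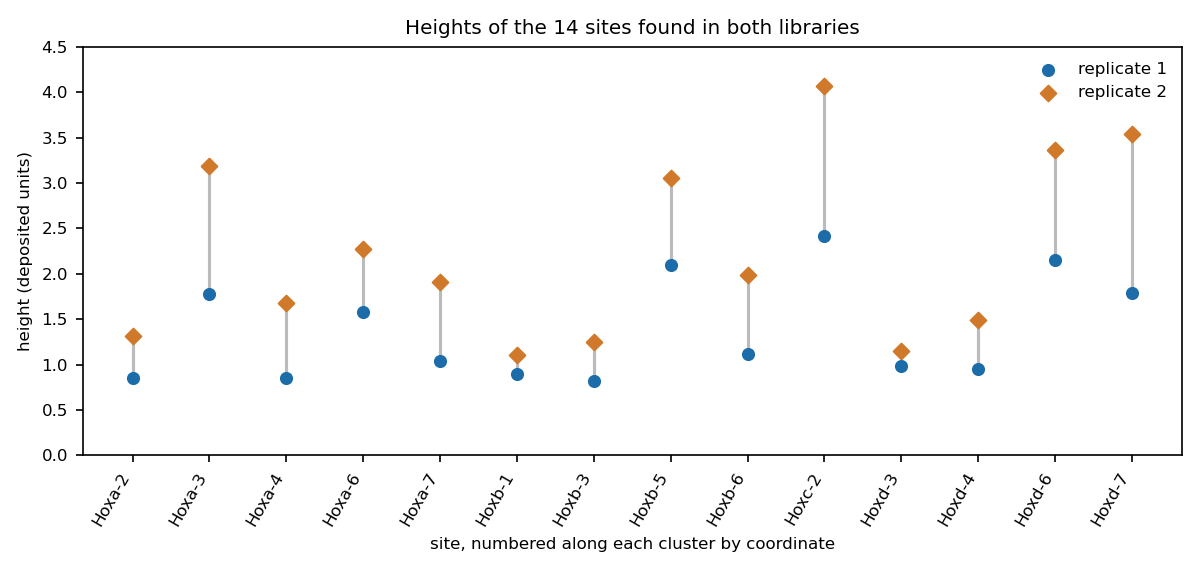
Deposited height (vertical axis, authors' units) of the 14 sites found in both libraries, in the order of their coordinates within each cluster. Circles are replicate 1 and diamonds replicate 2, joined by a line for each site. Hoxc-2 is the highest in both libraries, at 2.42 and 4.07, and every diamond stands above its circle.

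The sequences of the 5 strongest shared sites away from Hox starts are printed because they are the accessible DNA that both libraries held in clusters whose gene starts were mostly closed. They are the C57BL/6J reference of mm10, plus strand, 5′ to 3′; alleles of CAST/EiJ were not read. Capitals mark bases inside a footprint in both libraries. Hoxa-6 spans chr6:52257041-52257220, Hoxb-5 chr11:96278881-96279060, Hoxc-2 chr15:102987501-102987700, Hoxd-6 chr2:74702301-74702500 and Hoxd-7 chr2:74715841-74716040. Hox genes are on the minus strand in Hoxa and on the plus strand in the other clusters.
Hoxa-6: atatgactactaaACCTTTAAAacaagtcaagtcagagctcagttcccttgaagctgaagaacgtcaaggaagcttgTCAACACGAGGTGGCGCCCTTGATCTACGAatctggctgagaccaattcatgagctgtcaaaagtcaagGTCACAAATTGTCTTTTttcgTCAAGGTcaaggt
Hoxb-5: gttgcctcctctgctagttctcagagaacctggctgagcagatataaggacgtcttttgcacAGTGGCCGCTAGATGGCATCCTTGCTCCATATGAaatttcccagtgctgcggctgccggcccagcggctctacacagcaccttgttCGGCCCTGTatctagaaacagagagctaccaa
Hoxc-2: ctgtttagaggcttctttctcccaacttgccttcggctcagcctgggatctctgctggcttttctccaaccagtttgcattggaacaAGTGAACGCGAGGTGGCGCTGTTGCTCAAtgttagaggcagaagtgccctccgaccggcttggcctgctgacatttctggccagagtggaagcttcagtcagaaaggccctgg
Hoxd-6: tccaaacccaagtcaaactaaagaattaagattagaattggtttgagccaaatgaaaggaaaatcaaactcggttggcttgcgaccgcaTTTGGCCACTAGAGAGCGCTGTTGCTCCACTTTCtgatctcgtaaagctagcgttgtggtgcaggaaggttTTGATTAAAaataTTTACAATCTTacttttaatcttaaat
Hoxd-7: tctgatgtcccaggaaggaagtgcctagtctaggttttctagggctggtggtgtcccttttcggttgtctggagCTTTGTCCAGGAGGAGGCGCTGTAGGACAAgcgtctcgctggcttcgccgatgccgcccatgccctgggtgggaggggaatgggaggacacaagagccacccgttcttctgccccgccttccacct

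The 7-base core AGNNGGC, part of the CTCF consensus, stood on either strand inside a stretch footprinted in both libraries in 7 of the 14 shared sites. The core was chosen after these sequences had been read, so its count in them is a description and supports nothing. It was so found in 27.3% of all 48179 shared regions, in 16.9% of those within 1000 bp of an annotated start and in 35.5% of the others. The 7 sites were Hoxa-3 at the Hoxa7 start, Hoxa-4 at the Hoxa10 start, Hoxa-6, Hoxb-5, Hoxb-6, Hoxc-2 and Hoxd-7, while Hoxd-6 held none. All 14 sites held a stretch footprinted in both libraries, as did 84.8% of all shared regions.

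A full match to the CTCF consensus, CCA, any pair of bases, AG, any pair of bases and GGC, was searched on both strands. It was found in 3 of the 14 shared sites (21.4%, 95% exact binomial interval 4.66% to 50.8%), those at Hoxa7 and Hoxa10 and Hoxd-7, against 15.4% of all shared regions and 22.6% of those away from starts. A stricter form, with a G fixed after the AG, was found in 1 of the 14, Hoxd-7 (7.14%), against 7.68% of all shared regions, and in neither of the Hox starts. The windows held 36 matches to the full consensus, of which 3 lay in a region of the shorter lists and 32 in no region of any list. The 3 overlapped footprints in both libraries. A longer CTCF consensus of 14 letters, allowing 2 mismatches and chosen after the data had been seen, was matched in 4 of the 14, Hoxa-4, Hoxa-6, Hoxd-6 and Hoxd-7 (28.6%, interval 8.39% to 58.1%), against 12.99% of all shared regions and 17.3% of those away from starts. The intervals cover counting error only, and those of both the full match and the longer consensus contain the share of all shared regions.

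Motifs of 4 other factors or families were searched in the same 14 sites. TGATTNAT, bound by pairs of Hox and PBX proteins, was found in 0 of 14 (an interval up to 23.2%), against 1.24% of all shared regions. TGACAG, the MEIS motif, was in 2 of 14, against 14.02%, and AAGATGGC, the YY1 motif, in 0 of 14, against 2.63%. GGGCGG, the SP and KLF motif, was in 4 of 14, against 28.7%. It was in 53.2% of the shared regions within 1000 bp of an annotated start and in 9.13% of the others. With 14 sites, the 95% interval for each motif contained its share of all shared regions.

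Of 20 protein-coding genes counted within 250 kb of the windows, 13 (65%) were open in replicate 1 and 14 (70%) in replicate 2. These shares were close to the 59.6% and 64.1% of all protein-coding genes. Evx2 was counted among the 20, though its start lies inside the Hoxd window. Skap2, a neighbour of Hoxa, had heights of 5.69 and 5.11. Atp5g1, on the Hoxb13 side of Hoxb and encoding a subunit of ATP synthase, had 7.42 and 6.73. Cbx5 and Hnrnpa1, on the Hoxc4 side of Hoxc, shared a region of 5.99 and 5.16. Lnpk, beyond Evx2 on the Hoxd13 side of Hoxd, had 2.50 and 3.35. The 6 neighbours closed in both libraries were Evx1, Evx2, Igf2bp1, Gip, Calcoco2 and Skap1, of which Evx1 and Evx2 lie beside Hoxa13 and Hoxd13.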

How the data were processed

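DNase-seq region lists, footprint lists and per-base false discovery rates of 2 libraries were used. The deposited region height is a signal value, made by the authors separately for each library on mm10, per the labels and the notes deposited with each sample; its normalisation, caller, threshold and sequencing depth were not given in the sources used here. No counting error could therefore be given for a height. The deposited FDR is read as a p-value adjusted by the authors and is listed up to 0.05; the deposited footprint lists give 0.01 in every row, read as a limit.

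Gene starts came from GENCODE M21, with genes merged by symbol and chromosomes 1 to 19, X and Y used. Open starts, cluster windows (spans with 10 kb on each side), shared regions (overlap of at least 1 bp) and CpG-rich starts were counted in Python 3.11.15 with pandas 2.3.3, numpy 2.4.6 and scipy 1.17.1, and the counting was tested on simulated regions. Sequence was read from the GRCm38 reference. Values are given per library or as mean ± SD (n = 2), beside the same for all genes or regions, with no test, since there is 1 group. All 39 Hox genes entered the counts, and values were given for those open in either list of either library, for the strongest shared sites, and for genes of 11 comparison lists; 2 genes are not reported singly here. The members, lists and motifs were chosen with earlier results of these data known. Alternatives covered the longer list, the stronger 50% of regions, equal numbers of regions, distances of 500 and 2500 bp, the outermost start, other flanks, reciprocal overlap of 50%, other CTCF consensus forms and each library alone.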

Additional observations from a re-analysis of the deposited data

How the results depend on the processing

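The number of open Hox genes, 4.5 on average over the libraries, was 9 with the longer lists and 8.5 with a distance of 2500 bp, and ran from 2 to 7 with each replicate left out. Counted by a base at an FDR of at most 0.001, it was 9 at a limit of 0.05 and 2 to 7 with each replicate left out. The 21 regions in the clusters became 36.5 with the longer lists and 12 with the stronger 50%, and the 14 shared ones became 24 and 7. The median height was 0.841 with the longer lists, and the 75 footprints became 49 when they had to lie in a region of the shorter list. Of the cluster results, 29 stayed, under the alternatives run, within the spread between libraries, within 1.5 times or, for the CTCF share, within its counting interval, and 13 did not. Some of these limits could hardly be passed. The median height of either library alone always lies within the spread, and the CTCF interval ran from 4.66% to 50.8%. The CTCF share, 21.4%, was 7.14% with the stricter consensus. Under each setting of list, height and distance run, at least 27 of the 39 Hox genes were closed in both libraries: with the distance of 2500 bp, Hoxa3, Hoxb6 and Hoxd8 joined Hoxa7 and Hoxa10 as open in both, and with the stronger 50% of regions Hoxa7 was the only one open in both. Hoxd3 was closed when the outermost start alone was used. No paired analysis was possible because there is 1 group. Depth is unknown, and a start without a region may hold accessible DNA below the authors' threshold.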

Other observations

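The cluster windows also held 28 counted genes other than the coding Hox genes, leaving out unclassified small RNA models. Noncoding genes named after a numbered Hox gene, such as Hoxd3os1, Hoxb5os and Hoxb3os, were also left out. Whether their starts were open is therefore not given here. 9530018H14Rik, between Hoxa11 and Hoxa13, was open in both libraries, and the long noncoding RNA gene Gm53, between Hoxb13 and Hoxb9, was open in replicate 2. MicroRNA genes also lie among the Hox genes, and those of the Mir10 and Mir196 families are known to repress several of them. Mir10b, Mir196a-1, Mir196a-2, Mir196b and Mir615 had no region near their starts in any list, and Mir10a had one by the longer list, in replicate 2 alone. The long noncoding RNA genes Hotair, Hottip and Hotairm1 had none in any list, as did Haglr, next to Hoxd1, except for a region of the longer list in replicate 2.

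Of the 14 sites found in 1 library by the shorter lists, 7 were in both libraries by the longer lists. Of those 14, 2 held a match to the longer CTCF consensus.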
